A study of Mus musculus with 6 samples.

Results

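Injured sensory neurons turn on a set of transcription factors that let their axons grow back. AP-1 proteins such as Jun and Atf3 are the best known, and 10 further factors are described here: the SoxC factors Sox11 and Sox4, the Krüppel-like factors Klf4, Klf6, Klf7 and Klf9, the bone morphogenetic protein (BMP) signal transducer Smad1, and Myc, Cebpd and Creb1. They were chosen by name, with earlier results of these data known. All 10 were among the 38926 gene symbols counted and the 17534 that passed the filter on low counts.

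The libraries came from intact dorsal root ganglia, where the cell bodies of sensory neurons lie, of wild type male C57BL/6 mice aged 6 to 8 weeks, at lumbar levels L3, L4 and L5. One group of 3 libraries was taken 3 days after a burn injury, and the other 3 libraries were labelled control, with no sham treatment described. Burn 3 carries a side mark in its title in place of a number (ipsilateral, per the series' design text), and no side is stated for the rest. The labels do not say whether libraries came from separate animals or from pools, and each p-value below therefore reflects library-to-library spread alone, which may be technical.

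Depth ran from 17273908 to 81968142 reads assigned to genes. Control 3 and burn 3 were the deeper libraries, the other 4 the shallower ones, and the first principal component (39.4% of the variance) separated them by depth and not by group. The labels call the tissue neurons. Neuronal markers such as Nefl and Prph summed to 10629 to 16914 CPM (counts scaled to library size) over the libraries, but markers of Schwann cells (4181 to 9441 CPM) and of skeletal muscle (571 to 9723 CPM) were present too, so RNA of whole ganglia and of adjoining tissue was measured. Of 9 spinal cord markers, all 9 had positive log2 fold changes and 8 were higher at an unadjusted p under 0.05 (median log2 fold change 1.505). Their summed level was 65.1 to 122 CPM in controls and 123 to 288 CPM after the burn. All 9 neuronal markers had negative log2 fold changes (median -0.13), 0 of them with an unadjusted p under 0.05. The part of these cells in the values below was not tested. Of all 17534 genes tested, 9137 had positive and 8397 negative log2 fold changes. At an edgeR unadjusted p under 0.05, 2.04% of all genes were higher. Whether genes of a list vary together was not tested, so signs that they share are a description. Some values below come from fits with the spinal cord markers as a covariate. The covariate there was the mean log2 CPM of the 9 markers, not their sum. The summed levels did not overlap between groups, though narrowly (121.7 CPM in control 2 and 122.6 CPM in burn 2). Marker level thus went with group, so burn and spinal cord content cannot be fully told apart in those fits. In such bulk samples fewer cells of a type and less RNA per cell cannot be told apart.

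These factors work by different routes. SoxC proteins bind DNA through an HMG box and drive neuronal differentiation genes, and Sox11 supports axon regrowth in peripheral neurons. Krüppel-like factors bind GC-rich and CACCC sequences through zinc fingers; Klf6 and Klf7 favour axon growth, whereas Klf4 and Klf9 restrain it in central neurons. Smad1 carries BMP receptor signals to the nucleus and is needed for axon growth of sensory neurons, Myc drives ribosome and growth genes, Cebpd belongs to acute stress responses, and Creb1 mediates the growth-enhancing effect of cyclic AMP.

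Upstream sequences are shown for the 2 members whose burn libraries all lay above the controls, Sox11 and Klf7, each with its closest relative among the members, Sox4 and Klf6. They are RefSeq sequences of build GRCm38.p6, 5′ to 3′ toward the transcription start, without any base of an exon that GENCODE annotates for the same gene. Exons of other genes were not checked. For Klf7 RefSeq's start lies inside the annotated gene, since GENCODE also holds transcripts that begin farther upstream, and the stretch shown is intronic for those. Of the 10 members, 8 matched an entry (not Myc and Cebpd). Capitals mark matches, on either strand, to the CRE-like sequence TGANNTCA and to the CCAAT box, CCAAT. TGANNTCA allows any 2 middle bases, so it is looser than the CRE that ATF and CREB proteins bind.
Sox11, chr12:27342719-27342968, minus strand: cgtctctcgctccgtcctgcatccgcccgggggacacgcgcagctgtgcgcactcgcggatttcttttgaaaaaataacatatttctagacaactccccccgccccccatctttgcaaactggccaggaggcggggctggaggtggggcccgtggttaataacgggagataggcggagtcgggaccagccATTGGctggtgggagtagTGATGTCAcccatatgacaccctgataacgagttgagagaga
Sox4, chr13:28953714-28953949, minus strand: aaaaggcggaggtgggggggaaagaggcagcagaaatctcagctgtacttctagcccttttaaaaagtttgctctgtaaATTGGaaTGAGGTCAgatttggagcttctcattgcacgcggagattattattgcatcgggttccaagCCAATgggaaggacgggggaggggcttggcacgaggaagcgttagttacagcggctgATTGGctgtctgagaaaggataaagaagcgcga
Klf7, chr1:64121492-64121639, minus strand: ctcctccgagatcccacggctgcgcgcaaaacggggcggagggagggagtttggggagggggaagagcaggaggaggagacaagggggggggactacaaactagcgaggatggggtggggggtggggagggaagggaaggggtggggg
Klf6, chr13:5861239-5861481, plus strand: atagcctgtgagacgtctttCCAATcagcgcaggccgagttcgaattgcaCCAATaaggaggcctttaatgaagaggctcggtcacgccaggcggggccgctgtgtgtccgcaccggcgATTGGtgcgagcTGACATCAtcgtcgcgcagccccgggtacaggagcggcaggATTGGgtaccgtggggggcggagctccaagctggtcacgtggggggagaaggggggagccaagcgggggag

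Distances here are to RefSeq's start. The Sox11 window held the CRE-like match TGATGTCA, 42 bases before the start. GENCODE begins Sox11 farther downstream, at 27342574, so the match lies farther from that start. Sox4 held TGAGGTCA at 164 bases and Klf6 TGACATCA, which is TGATGTCA read on the other strand, at 119 bases. Klf7 held neither TGANNTCA nor CCAAT. Over whole windows, 250 bases before the start and 50 after it, TGANNTCA occurred in 3 of the 8 members and in 14.1% of all 32851 windows, and CCAAT in 5 of the 8 and in 37.4%. The exact CRE, TGACGTCA, which is contained in TGANNTCA, occurred in 0 of the 8 and in 1.79% of all windows. Among other motifs searched, the GC box, GGGCGG, occurred in 6 of the 8 and in 35.7% of all windows. CACCC occurred in 4 of the 8 and in 57.5%. The CRE half-site, TGACG, occurred in 3 of the 8 (Klf4, Klf9 and Smad1) and in 20.8%. The E-box, CACGTG, occurred in 2 (Klf4 and Klf6) and in 7.15%. The AP-1 motif, TGANTCA, occurred in 1 (Klf9) and in 7.81%. The C/EBP motif, TTGCNNAA, occurred in 1 (Sox11) and in 10.8%, and TATAAA in 0 and in 13.6%. A match describes letters only, and its bearing on transcript levels was not tested.

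No member passed the test between burn and control. With edgeR's quasi-likelihood test and Benjamini-Hochberg adjustment over all genes, 0 of 10 members had an adjusted p under 0.05, against 0.0228% of all genes tested. DESeq2 (0.132% of its genes) and limma-voom (0.0171%) also called 0 of 10. At an unadjusted p under 0.05, 1 member was higher, Sox11, where 2.04% of all genes were, and 0 were lower, where 0.924% of all genes were (2.96% in either direction). The 3 burn libraries lay above all 3 controls in 2 of 10 members, Sox11 and Klf7 (4.33% of all genes), and below them in 0 of 10 (2.91%, or 7.24% in either direction). The median log2 fold change was 0.06 for the members and 0.01 for all genes, and the median size regardless of sign was 0.11 and 0.12.

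**Figure D1:**
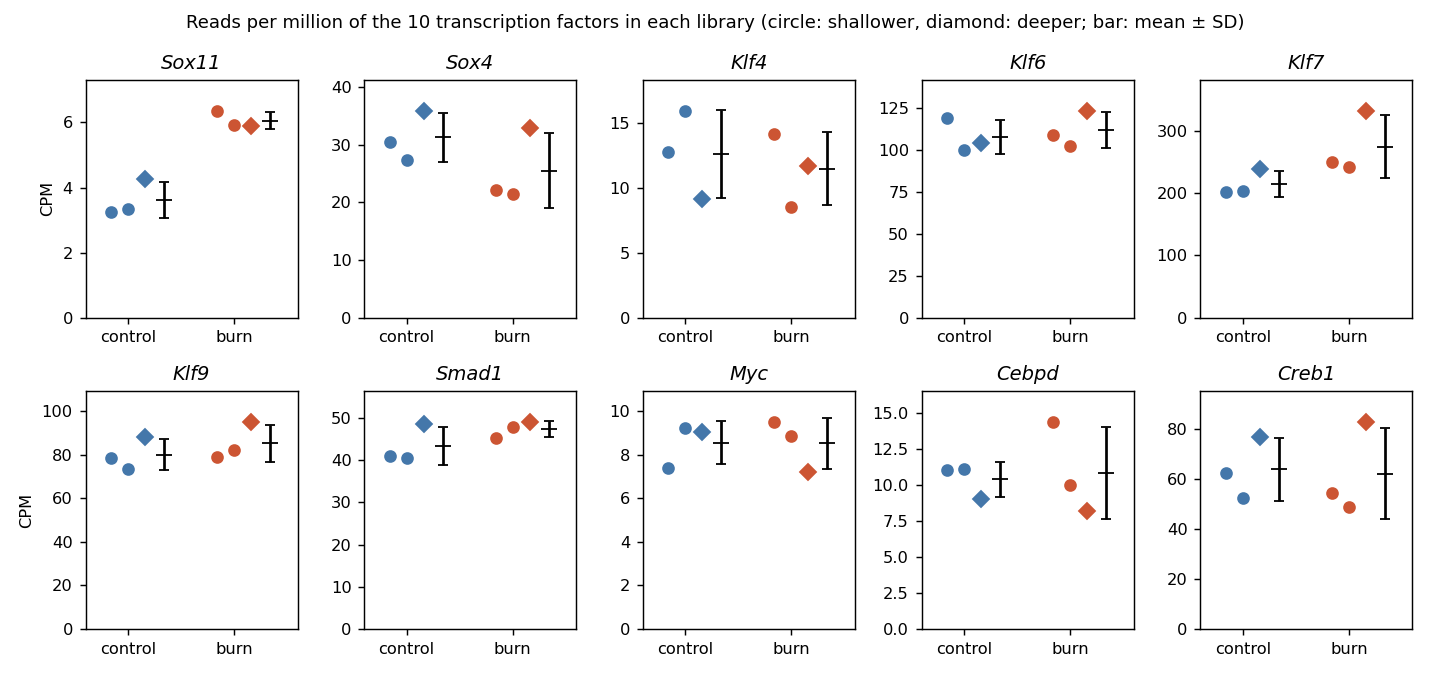
CPM of each of the 10 transcription factors in the 3 control (blue) and 3 burn (orange) libraries, with circles for shallower and diamonds for deeper libraries and black bars for the mean ± SD; each vertical axis starts at 0. The groups separate for Sox11 (3.25 to 4.25 CPM against 5.89 to 6.36) and Klf7 (202 to 239 CPM against 242 to 332), and overlap in the other 8.

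Sox11 was the member with the largest difference. It is a gene of 1 exon on chromosome 12 (27334264 to 27342574, GRCm38, minus strand). Controls 1, 2 and 3 had 119, 60 and 338 reads and the burn libraries 144, 179 and 387. In CPM, the controls stood at 3.25, 3.34 and 4.25 and the burn libraries at 6.36, 5.93 and 5.89. Every burn library lay above every control, and the burn libraries differed from each other by less than the controls did. The means were 6.06 ± 0.263 CPM after the burn and 3.61 ± 0.552 in controls (SD, n = 3). This is a 1.67-fold difference, with a 95% interval of 1.25 to 2.22 (log2 fold change 0.74, SE 0.18).

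Sox11 ranked 55th of 17534 genes by p, and it did not pass (edgeR unadjusted p 0.00362 and adjusted p 0.9998). DESeq2 gave an adjusted p of 0.3107 and limma-voom 0.9998. The log2 difference was 0.47 between the 2 deeper libraries and 0.89 among the 4 shallower ones. With the spinal cord markers as a covariate the log2 fold change was 0.98 (SE 0.30, adjusted p 0.9999). The spinal cord marker sums were 121, 122 and 65.1 CPM in controls 1, 2 and 3 and 205, 123 and 288 CPM in burn libraries 1, 2 and 3.

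Sox4, the other SoxC member, did not share this pattern. It lies on chromosome 13 (28948919 to 28953713). Controls stood at 30.5, 27.4 and 35.9 CPM and burn libraries at 22.1, 21.5 and 33.0 CPM, so the groups overlapped through the deeper burn 3. Its log2 fold change was -0.29 (SE 0.19, 95% interval -0.74 to 0.16; edgeR's adjusted p was 0.9998), and -0.52 without burn 3. The ratio of Sox11 to Sox4 reads was 0.106, 0.122 and 0.118 in the controls and 0.288, 0.276 and 0.179 in the burn libraries. This ratio does not depend on library scaling, and its groups did not overlap. Sox11 alone already separated by group, so the ratio is not separate support. Its difference was not tested, and no share over other gene pairs was computed. A noncoding gene on the opposite strand, Gm26735, overlaps 54.6% of the Sox4 exon. It had 3 to 28 reads per library, and how strand was handled in counting is unknown here.

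Across the Sox family 14 of 19 genes were tested. None passed, 2 were higher at an unadjusted p under 0.05 (Sox11 and Sox5) and 0 were lower. The median log2 fold change was -0.09, and its sign turned without the filter on low counts (0.093), in DESeq2 (0.11), in the 4 shallower libraries (0.030), without control 3 (0.0049) and without burn 2 (0.0032), among other settings. Sox5, a SoxD factor, stood at 6.20, 5.23 and 5.94 CPM in controls and 8.39, 6.62 and 8.29 after the burn (log2 fold change 0.42, SE 0.17). Sox9, a factor of glia and cartilage, had 0.36 (SE 0.23). Sox3, a SoxB1 factor of neural progenitors, had -0.64 (SE 0.45). Sox12, the remaining SoxC gene, had 0.10 (SE 0.20).

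Genes linked to SoxC proteins in neurons gave no call either. Of 5 such genes 0 passed, 0 had an unadjusted p under 0.05, and the median log2 fold change was -0.0026. Dcx, a microtubule protein of young neurons, had 0.53 (SE 0.34). Arpc3, an actin-nucleating subunit, had -0.12 (SE 0.11), and Tubb3, the neuronal tubulin, -0.11 (SE 0.19).

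Klf7, a growth-promoting Krüppel-like factor on chromosome 1 (64029447 to 64122282), was the other separated member. Controls stood at 202, 204 and 239 CPM and burn libraries at 249, 242 and 332 CPM. The lowest burn value, 242, lay close to the highest control, 239, and burn 3 was the highest of the 6 libraries. The log2 fold change was 0.35 (SE 0.16), a 1.28-fold difference with a 95% interval of 0.992 to 1.64 (unadjusted p 0.0559, adjusted p 0.9998 by edgeR). Without burn 3 it was 0.20. Within depth classes the log2 differences were 0.47 (deeper) and 0.28 (shallower). The noncoding gene Gm26649, on the opposite strand over 39.3% of the Klf7 exon length, had 1 to 7 reads per library.

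Klf6, the second growth-promoting member, lies on chromosome 13 (5861482 to 5870394). Controls stood at 119, 99.7 and 104 CPM and burn libraries at 109, 102 and 123 CPM. The values interleaved, with a log2 fold change of 0.05 (SE 0.12) and an interval of 0.852-fold to 1.26-fold. The ratio of Klf7 to Klf6 reads was 1.69, 2.04 and 2.29 in controls and 2.29, 2.36 and 2.69 after the burn, which overlapped at control 3 and burn 1.

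The growth-restraining members also overlapped. Klf9, on chromosome 19 (23141226 to 23168134), stood at 78.6, 73.7 and 88.05 CPM in controls and 78.8, 82.3 and 95.1 after the burn (log2 fold change 0.09, SE 0.12). Klf4, on chromosome 4 (55527143 to 55532466), stood at 12.7, 15.9 and 9.16 CPM in controls and 14.1, 8.51 and 11.7 after the burn (log2 fold change -0.13, SE 0.25). Klf4 was the least reproducible member among controls (coefficient of variation 26.8%). Its difference was 0.35 in the deeper and -0.37 in the shallower libraries, and -0.88 (SE 0.29; edgeR's adjusted p was 0.9999) with the spinal cord covariate. Klf4 is also expressed in endothelium, whose 8 markers summed to 207 to 295 CPM in controls and 204 to 266 CPM after the burn. Their part in the Klf4 values was not tested.

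Of the 17 Klf genes 15 were tested. None passed, 0 were higher and 1 was lower at an unadjusted p under 0.05. The median log2 fold change was 0.0079. The lower one was Klf1, the erythroid factor, with 13.7, 12.9 and 4.30 CPM in controls and 4.55, 4.17 and 2.74 after the burn (log2 fold change -1.43, SE 0.44; edgeR's adjusted p was 0.9998). All 6 erythroid markers had negative log2 fold changes as well, with a median of -0.41 and summed levels of 1271 to 2894 CPM in controls and 1480 to 2361 after the burn. Their part in the Klf1 values was not tested. Klf2, an endothelial factor, had -0.26 (SE 0.24) and Klf13 0.12 (SE 0.13).

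**Figure D2:**
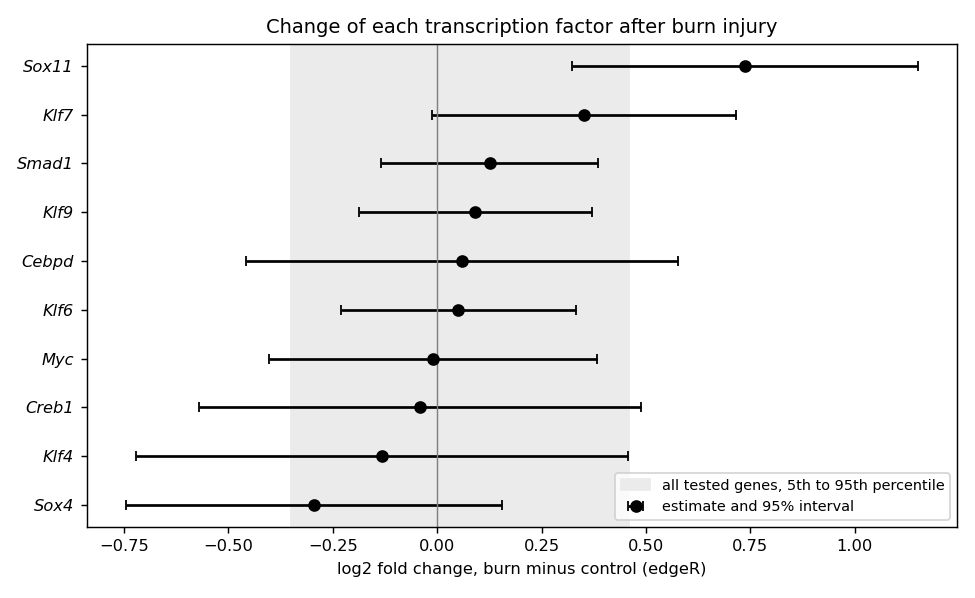
Log2 fold change of each factor (burn minus control, edgeR) with its 95% interval, over a grey band for the 5th to 95th percentile of all tested genes (-0.35 to 0.46). The interval of Sox11 alone lies above 0, and the other 9 intervals hold 0.

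Smad1 lies on chromosome 8 (79338395 to 79399518). Controls stood at 41.05, 40.6 and 48.5 CPM and burn libraries at 45.2, 47.95 and 49.01 CPM. The groups overlapped only through control 3, and the log2 fold change was 0.13 (SE 0.11), with an interval of 0.912-fold to 1.31-fold. Of the 8 Smad genes 0 passed and 0 had an unadjusted p under 0.05. The related BMP-activated Smad5 had 0.18 (SE 0.14) and the shared partner Smad4 0.21 (SE 0.13). Smad6, an inhibitory Smad, had the lowest value (-0.49, SE 0.23).

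BMP receptor transcripts all had positive signs, as did 9137 of all 17534 genes tested. Of 6 genes 0 passed and 3 were higher at an unadjusted p under 0.05, where 2.04% of all genes were. The median log2 fold change was 0.32, and 0.20 with the spinal cord covariate. Bmpr2, the type II receptor, stood at 116, 143 and 134 CPM in controls and 157, 154 and 182 after the burn (0.33, SE 0.13). Acvr2b had 0.47 (SE 0.18) and Acvr1 0.43 (SE 0.17). The inhibitory Smads and the Id genes, transcripts that BMP signals raise, all had negative signs: 6 of 6, median -0.15, 0 of them with an unadjusted p under 0.05. That median was -0.39 with the spinal cord covariate, -0.046 without control 2 and -0.081 without burn 2. Id3 had -0.23 (SE 0.17) and Smad7 -0.165 (SE 0.22).

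Among 9 BMP ligands and antagonists 0 passed, and 1 was higher and 0 were lower at an unadjusted p under 0.05. The median was -0.32, but 0.014 without control 2, -0.19 without burn 2, -0.17 in limma-voom and -0.70 with the spinal cord covariate. The higher one was Fst, which encodes follistatin, a secreted antagonist of activins and BMPs. It stood at 5.82, 5.73 and 5.15 CPM in controls and 11.2, 10.8 and 8.82 after the burn (log2 fold change 0.88, SE 0.16; edgeR's adjusted p was 0.5398). Nog, the antagonist noggin, had -0.35 (SE 0.18) and Bmp5, a ligand, 0.25 (SE 0.19).

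Myc lies on chromosome 15 (61985391 to 61990374). Controls stood at 7.40, 9.24 and 9.04 CPM and burn libraries at 9.50, 8.84 and 7.22 CPM. The values interleaved, and the means were 8.56 ± 1.01 and 8.52 ± 1.17 CPM (SD, n = 3). The fitted log2 difference was -0.0088 (SE 0.17), with an interval of 0.757-fold to 1.30-fold. Of the 13 genes of the Myc network 0 passed and 0 had an unadjusted p under 0.05, with a median of -0.07. The dimer partner Max had -0.039 (SE 0.10), and 2 repressors that compete for Max, Mxd4 and Mxd3, had -0.24 (SE 0.13) and -0.57 (SE 0.41). Mga, another Max partner, had 0.15 (SE 0.12). Of 12 known Myc targets 0 passed and 0 had an unadjusted p under 0.05, with a median of 0.018. Ldha of glycolysis had -0.17 (SE 0.20), Srm of polyamine synthesis -0.10 (SE 0.13) and Cdk4 of the cell cycle -0.13 (SE 0.19). All 6 proliferation markers had negative signs (median -0.66), 0 of them with an unadjusted p under 0.05.

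Cebpd, a gene of 1 exon on chromosome 16 (15887286 to 15891031), varied most after the burn, together with Creb1 (coefficients of variation 29.4% and 29.3%). Controls stood at 11.01, 11.1 and 8.99 CPM and burn libraries at 14.4, 9.97 and 8.17 CPM. Burn 1 was the highest and burn 3 the lowest of the 6 libraries, and the log2 fold change was 0.06 (SE 0.22, interval 0.728-fold to 1.49-fold). In both groups the deeper library had the lowest value. Spidr, a protein-coding gene on the opposite strand, overlaps 562 bases of the Cebpd exon and had 240 to 836 reads per library. Of the 6 C/EBP genes 0 passed and 0 had an unadjusted p under 0.05. Cebpb, the family member known from inflammation, had -0.37 (SE 0.17), Cebpe, a granulocyte factor, -0.76 (SE 0.45), and Ddit3, of the unfolded protein response, -0.05 (SE 0.12). Neutrophil markers had negative signs in 8 of 8 (746 to 1767 CPM in controls, 727 to 1520 after the burn) and macrophage markers positive signs in 7 of 7 (161 to 249 and 185 to 367 CPM). Their part in these values was not tested.

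Klf9 and Cebpd are also glucocorticoid-induced genes, which a stressed animal can express more. Of 13 such genes 0 passed and 0 had an unadjusted p under 0.05, with a median of 0.0068. Per1, a clock gene, had 0.41 (SE 0.22), Pdk4, a kinase of pyruvate metabolism, 0.86 (SE 0.59), and Nfkbia, an inhibitor of NF-kappaB, -0.15 (SE 0.15).

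Creb1 lies on chromosome 1 (64532645 to 64604548). Controls stood at 62.2, 52.1 and 76.9 CPM and burn libraries at 54.5, 48.7 and 82.7 CPM. The deeper libraries held the highest value of each group, a wider gap than that between the groups, and the log2 fold change was -0.04 (SE 0.23, interval 0.673-fold to 1.40-fold). Of 8 CREB family genes and coactivators 0 passed and 0 had an unadjusted p under 0.05. The median was 0.20, but -0.17 with the spinal cord covariate, 0.077 in the 4 shallower libraries and 0.107 to 0.31 when 1 library was left out. Crtc1, a neuronal coactivator, had 0.29 (SE 0.17), Crem, a relative of Creb1, 0.23 (SE 0.17), and Ep300, a histone acetyltransferase, 0.27 (SE 0.21).

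Of 13 genes known as CREB targets 0 passed, and 2 were higher and 0 were lower at an unadjusted p under 0.05. The median was 0.23, but 0.070 without burn 3, 0.089 with the spinal cord covariate, 0.104 with the stricter filter of 1 CPM in 3 libraries and 0.14 in the 4 shallower libraries. Vgf, a secreted neuropeptide precursor, stood at 30.1, 30.2 and 36.4 CPM in controls and 60.9, 58.5 and 42.2 after the burn, with no overlap (log2 fold change 0.74, SE 0.16; edgeR's adjusted p was 0.9998). It was the 1 gene of these 13 whose burn libraries all lay above the controls, against 4.33% of all genes. Bdnf, a neurotrophin, was the other of the 2 higher genes (0.43, SE 0.17). Arg1, the arginase linked to growth after cyclic AMP, had 9 to 21 reads in controls and 17 to 25 after the burn (0.89, SE 0.45).

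**Figure D3:**
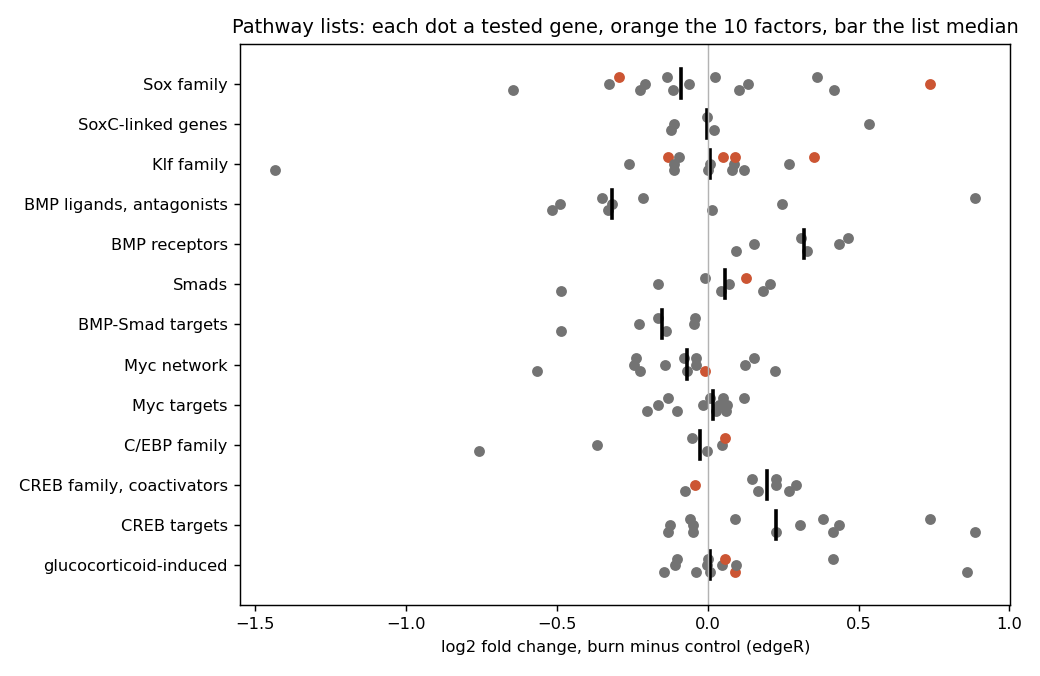
Log2 fold change (burn minus control, edgeR) of each tested gene of 13 family, pathway and target lists, from the Sox family to glucocorticoid-induced genes, with the 10 factors in orange and a black bar at each list's median. Medians run from -0.32 for BMP ligands and antagonists to 0.32 for BMP receptors, and single genes from -1.43 (Klf1) to 0.89 (Arg1).

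Levels of the members were compared per exon length, as CPM per kilobase of merged exon. In controls Klf7 (26.4 ± 2.57) and Klf6 (24.5 ± 2.31) were highest, and their libraries overlapped. Klf9 followed at 16.6 ± 1.51, below every Klf6 library. Smad1 (6.93 ± 0.713) and Sox4 (6.53 ± 0.897) overlapped. Creb1 (4.64 ± 0.905) overlapped with Klf4 (4.13 ± 1.11), Klf4 with Myc (3.15 ± 0.371), and Myc with Cebpd (2.77 ± 0.321). Sox11 was the lowest, at 0.435 ± 0.0664, below every Cebpd library, and at 0.729 ± 0.0316 after the burn it was still the lowest of the 10 (SD, n = 3). So the member that differed most between groups was the one with the lowest level. Merged exons include alternative ends, which lowers the values of genes with long ones.

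**Figure D4:**
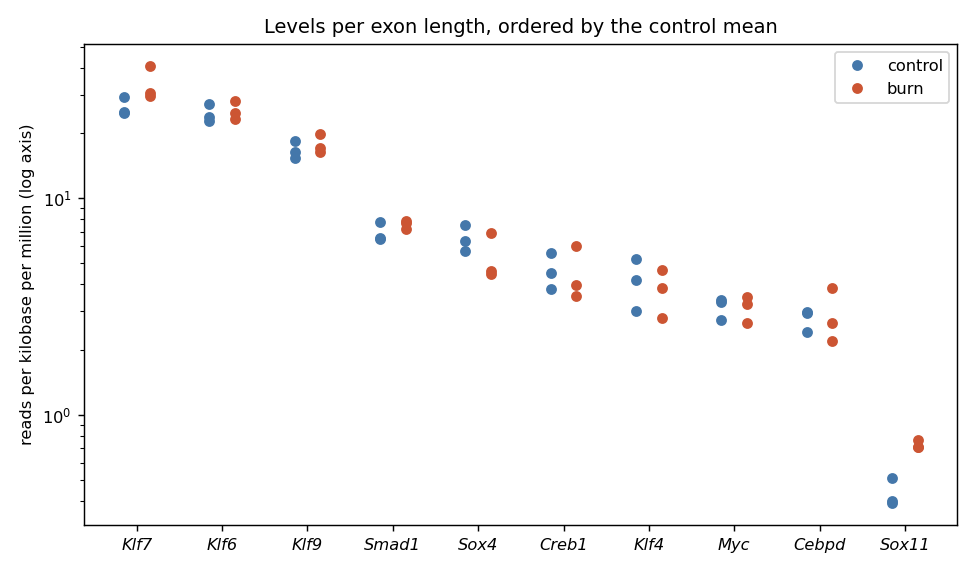
Level (CPM per kilobase of merged exon) of each factor in the 3 control (blue) and 3 burn (orange) libraries, on a log axis, ordered by the control mean. The factors span from 26.4 (Klf7) to 0.435 (Sox11) in controls, and the order of the extremes is the same after the burn.

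The signs of several members differed between depth classes. Among the 4 shallower libraries alone, both burn values lay above both controls in 4 of 10 members (Sox11, Klf7, Klf9 and Smad1; 14.2% of all genes) and below them in 1, Sox4 (14.1% of all genes). This count was not planned. Klf9 separated narrowly, at 78.6 CPM in control 1 and 78.8 CPM in burn 1. None of the 10 members passed the test in these 4 libraries. The differences of Klf4, Klf6, Creb1, Cebpd and Myc had opposite signs in the deeper and the shallower libraries, and those of the other 5 had the same sign.

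**Figure D5:**
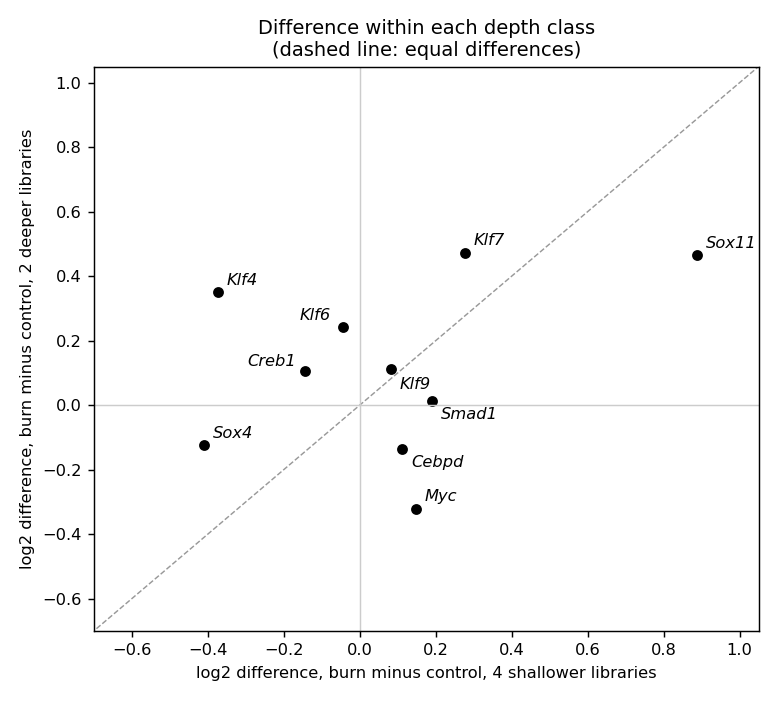
Log2 difference (burn minus control) of each factor among the 4 shallower libraries (horizontal) and between the 2 deeper libraries (vertical), with a dashed line of equal differences. Sox11 (0.89 and 0.47) and Klf7 (0.28 and 0.47) lie to the upper right, and 5 factors lie in quadrants of opposite sign.

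The intervals hold for the main fit only. Of the 10 members, 9 had a 95% interval within a 2-fold difference in either direction there, and the interval of Sox11 reached 2.22-fold. The median SE was 0.17 for the members and 0.18 for all genes, so this width is not particular to the members. With the spinal cord covariate the SE of every member was larger, such as 0.45 for Creb1 and 0.37 for Sox4. Klf4 had -0.88 (SE 0.29) in that fit. The other regeneration factors outside the members gave 1 call of 9 genes, the AP-1 partner Atf3, which rose from 6.99, 6.73 and 7.20 CPM to 80.9, 75.6 and 60.05 CPM (edgeR adjusted p 0.0003875). Jun differed by 0.21 on the log2 scale (SE 0.10) and Srf, an actin-responsive factor, -0.22 (SE 0.15), and neither passed.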

How the data were processed

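Stranded total RNA of 3 burn and 3 control libraries was sequenced, per the labels' protocols. The authors deposited raw counts of reads per gene symbol, 1 file per library; per the submitters' processing notes, STAR, SAMtools and HTSeq were used, with mm10 and GRCm38 as builds (annotation release and strand setting: not given in the sources used here). The 5 HTSeq tally lines (49.2% to 56.2% of entries) name no gene and were left out. Within groups, no 2 libraries agreed within counting error (chi-square over its degrees of freedom, 40.5 to 189).

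Counts were fitted with edgeR 4.0.16 in R 4.3.3: filterByExpr (minimum count 10, minimum total 15), TMM scaling, estimateDisp (biological coefficient of variation 0.221), robust glmQLFit and glmQLFTest, group as the only term, two-sided, Benjamini-Hochberg over 17534 genes. SE is the log2 fold change divided by the root of F. CPM uses scaled library sizes. Differences within depth classes are of log2 CPM with a prior count of 2. The test was tested on simulated counts. Lengths, positions and overlaps came from GENCODE M21 (GRCm38). DESeq2 1.42.0 and limma 3.58.1 were alternatives; figures used matplotlib 3.10.9.

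The members, lists and tests were chosen with earlier results of these data known. Named genes are the members, called genes and up to 3 non-members with the lowest p of each list, relatives and partners of members (Sox12, Max), Atf3, and, for Sox11 and Sox4, the 3 genes of a mean log2 CPM of at least 3 with the highest Pearson r over 6 libraries.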

Additional observations from a re-analysis of the deposited data

How the results depend on the processing

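Over 17 alternative settings each, Sox11 (0.66 to 0.98), Sox4 (-0.52 to -0.18), Klf7 (0.20 to 0.44), Klf9 (0.02 to 0.17) and Smad1 (0.08 to 0.30) kept the sign of their log2 fold change, and none was called. Signs turned for values near 0. For Klf6 they were -0.039 with the 4 shallower libraries and -0.13 with the spinal cord covariate, for Myc 0.0044 with a filter of at least 1 CPM in at least 3 libraries, 0.16 with the 4 shallower libraries and 0.17 with the spinal cord covariate, and for Cebpd -0.0032 with limma-voom and -0.13 with the spinal cord covariate. Leaving out 1 library gave ranges of -0.31 to 0.065 for Klf4, -0.017 to 0.13 for Klf6, -0.10 to 0.11 for Myc, -0.19 to 0.24 for Cebpd and -0.30 to 0.12 for Creb1. The cause was not tested.

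Genes called over all tested, 4 in the main analysis, were 7 at an adjusted p under 0.1, 14 without a filter, 28 with DESeq2, 38 with a depth term, 15 with the 4 shallower libraries, 0 with the spinal cord covariate (unadjusted p under 0.05: 144 higher, 326 lower; DESeq2 in the main design called 28) and from 1 to 6 when 1 library was left out. Members called stayed at 0 in each of these. List medians moved by more than the spread between libraries in 17 of 238 recomputations. With the spinal cord covariate they were -0.13 for the Klf family, -0.025 for the Smads, -0.22 for the Myc network, -0.25 for the C/EBP family and -0.18 for glucocorticoid-induced genes, against 0.0079, 0.058, -0.068, -0.026 and 0.0068 without it.

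Replicate numbers 1 and 2 occur in both groups' labels. Same-numbered libraries did not deviate together (r -0.09 and -0.055 across genes, against 0.38 and 0.44 for control 1 with burn 2 and control 2 with burn 1). Whether same-numbered libraries share more than a number is not stated in the labels and cannot be told from these values. With the replicate block over these 4 libraries 4 genes and 0 members were called, with log2 fold changes of 0.91 for Sox11, -0.031 for Klf6 and 0.16 for Myc, and a Sox family median of 0.043. A crossed replicate block, chosen after the data were seen, called 413 genes (103 higher, 310 lower) and 1 member, Sox11.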

Other observations

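Some genes varied over the 6 libraries much as single members did. Of 11476 genes whose log2 CPM averaged 3 or more, the ones most like Sox11 were Rasgrf2, a guanine nucleotide exchange factor of Ras signalling (Pearson r 0.997, n = 6 libraries), Sez6l (0.993) and Gpld1 (0.983). Their mean levels were 55.5 CPM after the burn and 35.9 in controls for Rasgrf2, 17.5 and 6.32 for Sez6l, and 20.9 and 17.5 for Gpld1. Those most like Sox4 were Nrarp, a regulator of Notch signalling (r 0.983), Ddit4, a stress-induced inhibitor of mTOR signalling (0.98), and Lactb (0.979). They were picked as the highest of 11476 and 11475 values over 6 libraries, which share group and depth, so these r values are a description only.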
